A study of Mus musculus with 28 samples.

Results

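The genes described here are 28 genes of cholesterol and fatty acid synthesis, chosen by name from the 28244 genes in the count table, and followed across all 11 groups (28 samples) of a study of neural stem cells (NSCs) found outside the brain. They comprise 6 genes of the mevalonate pathway (Hmgcs1, Mvk, Pmvk, Mvd, Idi1 and Fdps), 11 genes of the squalene and sterol steps (Fdft1, Sqle, Lss, Cyp51, Tm7sf2, Msmo1, Nsdhl, Hsd17b7, Ebp, Sc5d and Dhcr7), 3 regulators (Insig1, Srebf1 and Srebf2), 6 genes of fatty acid synthesis and desaturation (Acly, Acaca, Fasn, Elovl6, Scd1 and Scd2) and 2 genes of sterol transport (Stard4 and Abca1). Each of the 28 was detected in all 28 samples, and each passed the filter on low counts in every fit.

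Cells build cholesterol from acetyl-CoA through mevalonate, isoprenoid diphosphates, squalene and lanosterol, and they build saturated and monounsaturated fatty acids from the same precursor. The sterol regulatory element binding proteins, encoded by Srebf1 and Srebf2, drive most of these genes when membrane sterol is low, and Insig1 holds them back in the endoplasmic reticulum when sterol is high. Abca1 exports cholesterol and is a target of the liver X receptors (LXR), which sense oxysterols. In the brain, where lipoprotein cholesterol does not cross the blood barrier, neural cells depend on local synthesis.

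Peripheral NSCs (pNSCs) are NSC-like lines grown from tissues outside the central nervous system, picked as single and mostly clonal clusters and cultured in serum-free medium with EGF and bFGF. Brain-NSC, Tail-pNSC, Lung-pNSC, Tail and Lung had 2 samples each. Their labels name no mouse line, and their make-up matches the study's Nes-GFP mice, in which Nestin elements drive GFP, with pNSCs from adult lung and from postnatal tail. In the Wnt1Cre-mTmG mice, Cre under Wnt1 regulatory elements switches the progeny of the neural crest from Tomato to GFP. This cross gave brain NSCs, Tail pNSCs (grown from unsorted tail cells, and free of GFP) and dorsal root ganglion (DRG) pNSCs, with 3 samples each. They were set beside 3 samples of DRG NCSCs, the neural crest stem cells of adult wild-type DRG. Sox2-GFP mice carry GFP at the Sox2 locus and gave brain NSCs and postnatal lung pNSCs, with 3 samples each, for which the 2 Lung samples were the tissue control. All samples bear the strain label C57BL/6, whereas the study's methods give the background of its wild-type mice, with which the transgenic lines were bred, as CD1 or a mix of CD1 and C3H. The protocol puts postnatal mice at day 1 to 5 and adults at 4 to 6 weeks. The sources used here do not say how the Tail and Lung cells were grown or collected before RNA extraction, nor how the DRG NCSCs were grown.

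Total counts ran from 9808246 to 22637031 per sample, and the smallest detectable amount, taken as 3 counts, stood for 0.131 to 0.294 cpm (a gene's count scaled to a common library size, with TMM factors over all 28 samples). Within the Wnt1Cre-mTmG experiment, depth went with group: brain NSCs and DRG pNSCs had 9808246 to 11431445 counts, Tail pNSCs and DRG NCSCs 17051461 to 22548268. Markers of neural stem cells (Sox2, Olig2, Nes, Fabp7, Pax6 and Hes5) were above 1 cpm in all 8 NSC and pNSC groups, and DRG NCSCs held all 6 neural crest markers. Summed over each list, NSCs and pNSCs held at most 0.386 cpm of lung epithelial markers, 5.16 of leukocyte, 5.85 of endothelial and 13.0 of keratinocyte markers, of which 1 gene of 4 was above 1 cpm. Replicates lay close together: the squared differences between replicates were 1.08 to 2.58 times the counting error in 10 groups, and 2.08 to 18.3 times in DRG NCSCs, where replicate 3 stood apart. The study calls the replicates biological, but the sources used here do not say whether they were separate cultures or animals, so p-values measure the spread between these samples only. A gene was called higher or lower with edgeR's quasi-likelihood test at a Benjamini-Hochberg adjusted p under 0.05 over all tested genes and a change of at least 2-fold. Shares of all genes are given for such calls. Counts at a p limit without the limit on fold have no share of all genes beside them, nor do counts above or below 0. They describe the listed genes and do not set them apart from other genes.

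Hmgcs1 encodes the cytosolic HMG-CoA synthase, which makes the substrate of the pathway's main regulated reductase, and it was the highest of the mevalonate genes per length, with a mean of 177 cpm per kilobase of exon over the 28 samples. It lies on chromosome 13 from 119690379 to 119708260 on the plus strand (GRCm38). Among the 22 genes with a RefSeq promoter window (250 bases before to 50 after the start site, GRCm38.p6), it was the only one holding TCACNCCAC, the core of the classical sterol regulatory element, on either strand, and its window at chr13:119690101-119690400 (plus strand) is therefore shown. Capitals mark that core, which begins at position 114 of the window, and the 4 matches to CCAAT, the NF-Y box, all of them on the minus strand and so printed as ATTGG.
Hmgcs1: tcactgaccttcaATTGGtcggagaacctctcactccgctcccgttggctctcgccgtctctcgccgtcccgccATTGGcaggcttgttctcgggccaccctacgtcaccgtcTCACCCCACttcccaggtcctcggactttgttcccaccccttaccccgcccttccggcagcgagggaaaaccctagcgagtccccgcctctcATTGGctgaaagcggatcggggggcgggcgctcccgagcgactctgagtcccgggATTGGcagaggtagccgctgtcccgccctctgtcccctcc

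Of all 27025 genes with a window, 1.44% held the sterol core, against 4.55% of the 22 genes here. CCAAT was found in 19 of the 22 (86.4%), against 41.1% of all genes, and several genes held it more than once, with 5 matches in the window of Mvk, 4 in that of Nsdhl and 3 each in those of Msmo1, Hsd17b7 and Fasn. The E-box CACGTG, read on both strands, was found in 5 of the 22 (Hsd17b7, Sc5d, Dhcr7, Insig1 and Abca1), or 22.7%, against 8.09% of all genes. None of the 22 held AGGTCANNNNAGGTCA, the exact LXR direct repeat, which only 5 of 32851 windows held. These are matches of letters and not measured binding. Fdps, Fdft1, Sqle, Scd1, Scd2 and Stard4 had no window in the table.

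The 17 mevalonate and sterol genes had their highest mean level in Tail-pNSC, 7.13 ± 0.028 (SD, n = 2) as the mean of log2(cpm + 1) over the 17 genes, followed by Brain-NSC at 7.10 ± 0.008. Wnt1Cre-mTmG DRG pNSCs stood at 6.93 ± 0.011 (n = 3), Lung-pNSC at 6.81 ± 0.0003 (n = 2), Wnt1Cre-mTmG brain NSCs at 6.68 ± 0.012 (n = 3) and Sox2-GFP lung pNSCs at 6.54 ± 0.015 (n = 3). A gap separated these 6 groups from the other 5. Tail stood at 5.85 ± 0.0038 (n = 2), Sox2-GFP brain NSCs at 5.75 ± 0.0039 (n = 3), DRG NCSCs at 5.14 ± 0.03 (n = 3), Wnt1Cre-mTmG Tail pNSCs at 4.83 ± 0.02 (n = 3) and Lung at 4.74 ± 0.004 (n = 2). Tail-pNSC and Brain-NSC differed by about the spread of their replicates, and each other pair of neighbours in this order was apart by more than its spread. For 14 of the 17 genes, every sample of the 6 upper groups lay above every sample of Tail, Lung and DRG NCSCs, which 14.3% of all genes did. Idi1, Hsd17b7 and Ebp were the others. The 6 groups were set apart by the means of these same genes, so the count is a description and its share no fair comparison.

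**Figure D1:**
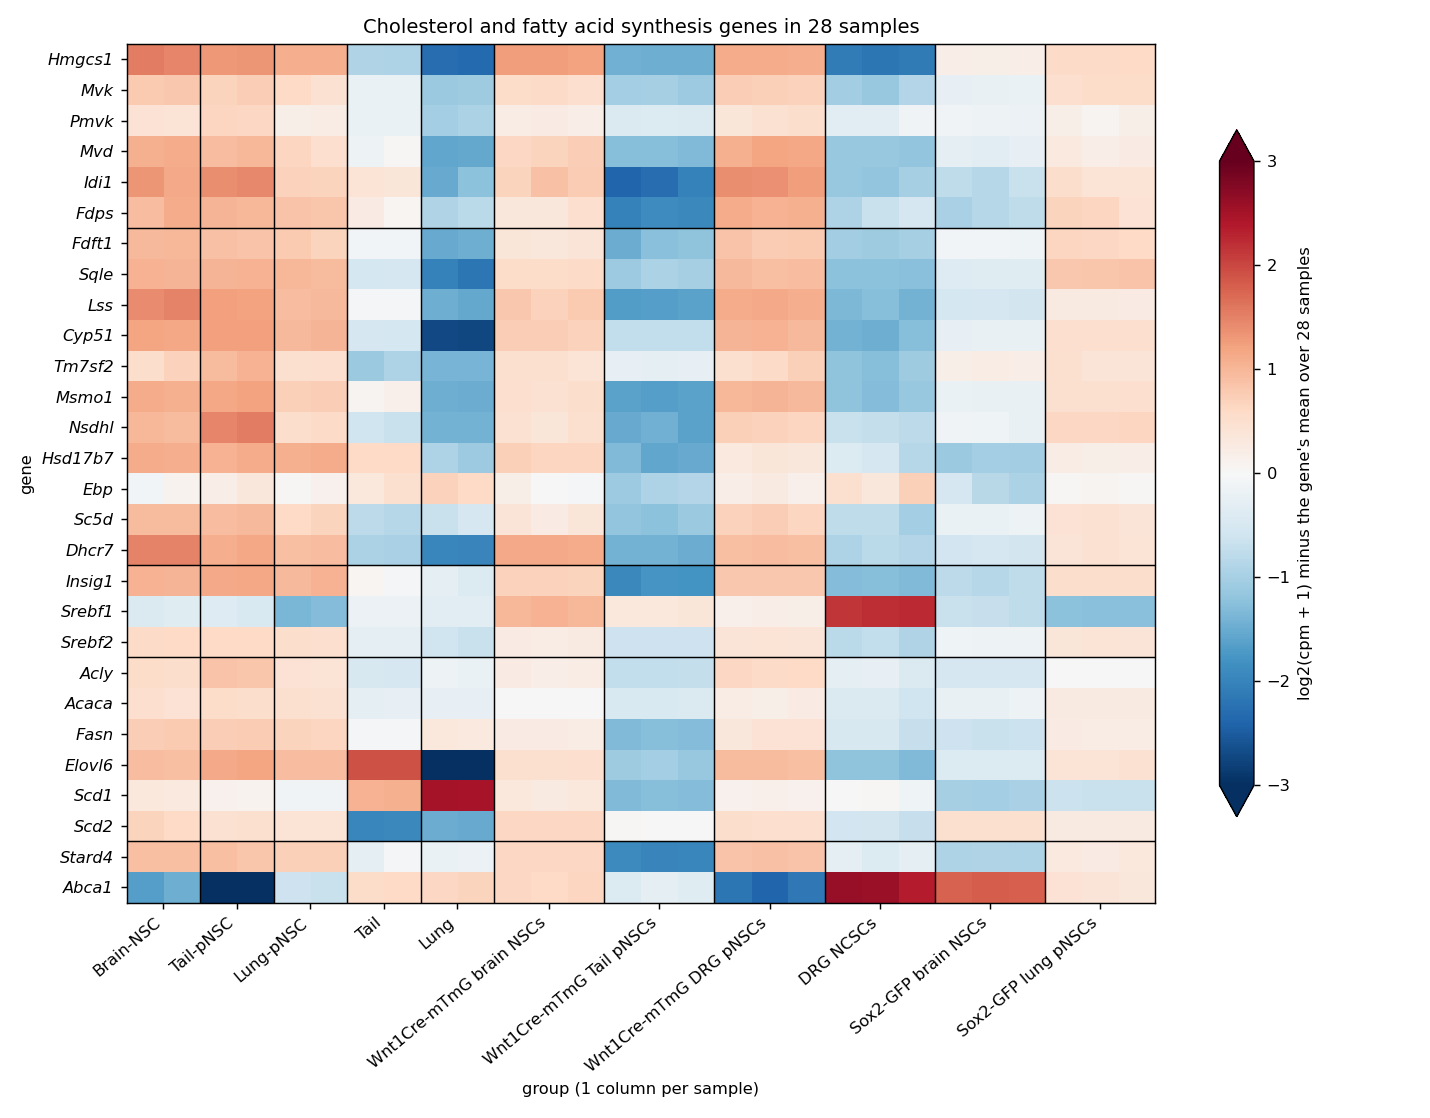
Level of each of the 28 genes (vertical axis, ordered by role) in each of the 28 samples (horizontal axis, grouped), as log2(cpm + 1) minus the gene's own mean over all samples, with red above and blue below that mean. Most sterol genes are red in 6 of the 8 NSC and pNSC groups and blue in Lung, DRG NCSCs and Wnt1Cre-mTmG Tail pNSCs, and Abca1 runs from deep blue in Tail-pNSC to deep red in DRG NCSCs.

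Hmgcs1 had 1665 and 1600.5 cpm in Brain-NSC, 1416 and 1435 in Tail-pNSC, 1220.5 and 1231 in Lung-pNSC, 306 and 302 in Tail and 118 and 114 in Lung. In the Wnt1Cre-mTmG lines it had 1373, 1365 and 1334 cpm in brain NSCs, 1254, 1249.6 and 1227 in DRG pNSCs and 213, 207 and 207 in Tail pNSCs, and DRG NCSCs had 134, 127 and 131. Sox2-GFP brain NSCs had 656, 653 and 661 cpm and Sox2-GFP lung pNSCs 861, 862 and 868. Lung-pNSC and DRG pNSCs overlapped, the other groups did not, and the 3 lowest were Lung, DRG NCSCs and Wnt1Cre-mTmG Tail pNSCs.

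Idi1, the isomerase that sets the ratio of the isoprenoid diphosphates, and Fdps, which joins them into farnesyl diphosphate, varied most among the 8 NSC and pNSC groups within the mevalonate pathway, by 15.1-fold and 12.3-fold between group means. Mvk (mevalonate kinase) varied 3.65-fold, Pmvk (phosphomevalonate kinase) 2.12-fold and Mvd (the decarboxylase that follows) 5.63-fold. Of the squalene and sterol genes, Lss (lanosterol synthase) varied 8.79-fold, Nsdhl (a sterol dehydrogenase) 8.38-fold and Dhcr7 (the reductase of a final step) 7.77-fold. Tm7sf2, a sterol reductase, and Ebp, the sterol isomerase, varied least, by 2.46-fold and 2.49-fold. All 17 had their lowest mean among these 8 groups in Wnt1Cre-mTmG Tail pNSCs.

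Over the 11 group means of log2(cpm + 1), the 136 pairs of the 17 genes had a median Pearson's r of 0.91, and 131 pairs lay above 0. These means share libraries and 3 brain controls, so the value is a description. Each gene was also set against the mean of the other sterol genes. Mvk followed it most closely (r = 0.99 over 11 groups), then Lss (0.99), Fdft1, the squalene synthase (0.99), and Mvd (0.99). Ebp did not, with r = 0.09 over 11 groups and 0.95 over the 8 NSC and pNSC groups: its highest means were in Lung at 32.6 ± 1.88 cpm (n = 2) and DRG NCSCs at 29.8 ± 3.93 (n = 3), groups in which the other sterol genes were low.

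**Figure D2:**
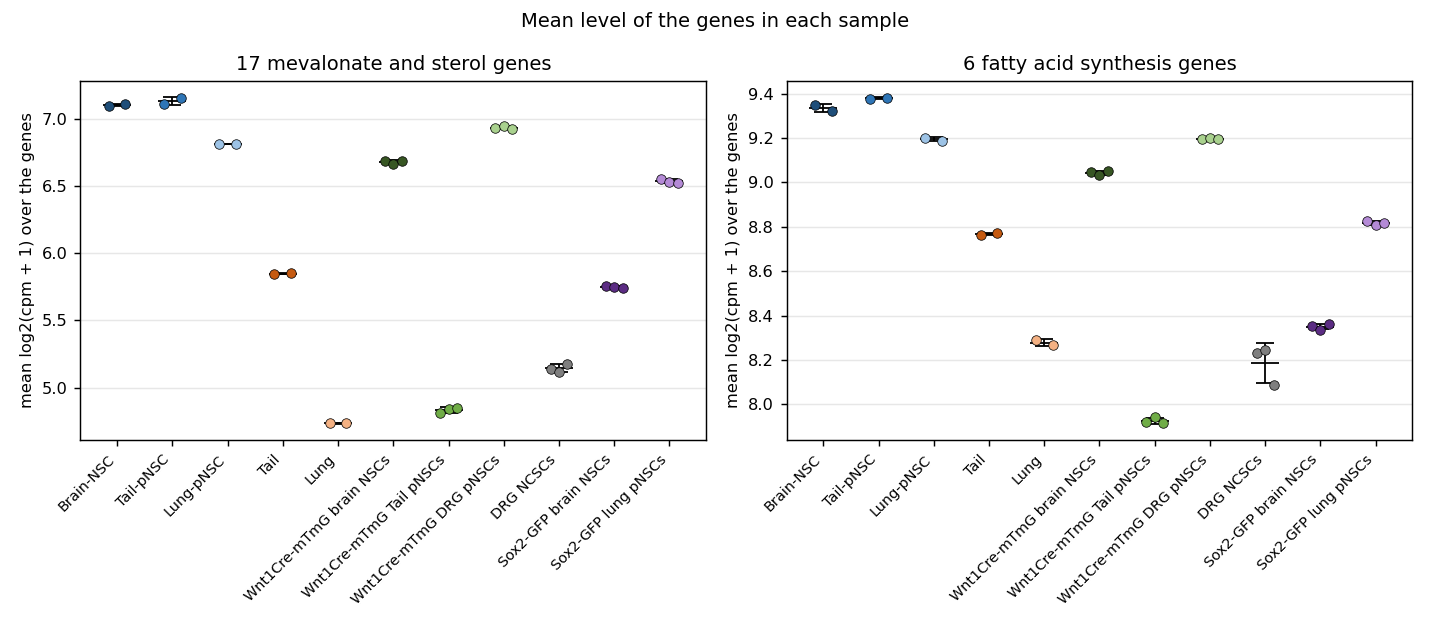
Mean of log2(cpm + 1) over the 17 mevalonate and sterol genes (left) and the 6 fatty acid synthesis genes (right) in each sample (points), with the group mean and SD as black bars; the vertical axes do not start at 0. Wnt1Cre-mTmG Tail pNSCs, at 4.83 and 7.93, lie below every other NSC and pNSC group in both panels.

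The study asked whether pNSCs resemble brain NSCs. Against Brain-NSC, Tail-pNSC had small differences in these genes: of 28, 0 were called higher and 1 lower, where 4.31% of all 16948 tested genes were called higher and 6.59% lower. The median log2 fold change of the 28 was -0.03, beside 0 for all genes. Without a limit on fold, edgeR's adjusted p was under 0.05 for 8 genes in each direction (8 higher and 9 lower at an unadjusted p under 0.05), the largest positive value being that of Nsdhl with a log2 fold change of 0.50 ± 0.0392 (SE). DESeq2 also called 0 higher and 1 lower. The called gene was Abca1, at 6.60 and 6.72 cpm in Tail-pNSC and 20.5 and 23.5 in Brain-NSC, a log2 fold change of -1.75 ± 0.105 (SE), edgeR adjusted p = 2.92e-60. In this fit, with 2 samples a group, the spread was borrowed across all genes.

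In the Wnt1Cre-mTmG line the tail pNSCs differed. All 28 genes were lower in Tail pNSCs than in the brain NSCs of the same line, at an adjusted p under 0.05. Of these 21 were called lower and 0 higher, where 9.05% of the 14448 tested genes were called lower and 9.16% higher. The median log2 fold change of the 28 was -1.61 beside 0.00 for all genes, and DESeq2 made the same count of 21. By role, 5 of 6 mevalonate genes, 10 of 11 squalene and sterol genes, 1 of 3 regulators, 3 of 6 fatty acid genes and both transport genes fell. For 25 of the 28, every Wnt1Cre-mTmG Tail pNSC sample lay below every sample of the other 7 NSC and pNSC groups, which held for 6.88% of all genes. The group was singled out by the levels of these same genes, so this count too is a description.

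Idi1 fell the most, from 40.1, 46.4 and 42.9 cpm in Wnt1Cre-mTmG brain NSCs to 3.94, 4.28 and 5.33 in Tail pNSCs, a log2 fold change of -3.28 ± 0.0986 (SE), edgeR adjusted p = 1.06e-14. Fdps followed, with 12.1, 12.2 and 13.7 cpm in the brain NSCs and 1.55, 1.82 and 1.73 in the Tail pNSCs, -2.92 ± 0.143 on the log2 scale. Its values in the Tail pNSCs rest on 35, 39 and 34 reads, and the gene overlaps Gm43738 and Gm22935 on its own strand. Hmgcs1, given above, changed by -2.72 ± 0.0340 on the log2 scale. In each of the 3 genes the groups were far apart, with every Tail pNSC sample below every brain sample. Mvd at -2.04 ± 0.0565 and Mvk at -1.64 ± 0.0623 fell as well, and Pmvk, at -0.68 ± 0.0695, was under the 2-fold limit.

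Past farnesyl diphosphate, Dhcr7 had 212, 214 and 208 cpm in Wnt1Cre-mTmG brain NSCs and 35.6, 35.4 and 33.9 in Tail pNSCs, a log2 fold change of -2.61 ± 0.0422. Lss had 181, 169 and 179 cpm and 31.8, 32.4 and 33.5, a change of -2.45 ± 0.0458. Hsd17b7, which reduces the sterol keto group, changed by -2.20 ± 0.0921, Msmo1, the methylsterol oxidase, by -2.15 ± 0.0463, and Nsdhl by -2.02 ± 0.0552. Smaller falls were those of Fdft1 (-1.73), Sqle, the squalene epoxidase (-1.59), Sc5d, a sterol desaturase (-1.55), Cyp51, the lanosterol demethylase (-1.48), and Ebp (-1.09). Tm7sf2, at -0.77 ± 0.0688, was not called. Of the 10 other genes of sterol synthesis and SREBP processing on the list, 4 fell and 1 rose in these Tail pNSCs (9.05% and 9.16% of all genes). Acat2, which makes the acetoacetyl-CoA that feeds Hmgcs1, fell from 121, 114 and 116 to 17.3, 16.4 and 19.6 cpm (-2.74 ± 0.0596 on the log2 scale).

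The tail effect itself was compared between the lines as an interaction in 1 fit of all 28 samples. Of the 28 genes, 22 differed, each with a lower effect in the Wnt1Cre-mTmG line (16.0% of 17393 tested genes were called in either direction), and the median difference was -1.55 on the log2 scale beside 0 for all genes. All 11 squalene and sterol genes, 5 of 6 mevalonate genes and 4 of 6 fatty acid genes were among them. Idi1 had the largest difference, -3.44 ± 0.122 (SE), then Fdps at -2.88 ± 0.175 and Insig1 at -2.66 ± 0.0604. Mesenchymal markers summed to 384 to 397 cpm in Wnt1Cre-mTmG Tail pNSCs, with all 6 above 1 cpm, beside 10.6 to 12.7 in the brain NSCs of that line and 2.14 to 2.90 in Tail-pNSC. Their part in the result was not tested. Experiment, mouse line, sorting and picked pNSC cluster differed together and cannot be told apart.

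DRG pNSCs of the same line differed less from their brain NSCs. Of the 28 genes, 0 were called higher and 1 lower (3.12% and 6.41% of all genes), with a median log2 fold change of 0.23 beside 0.01 for all genes. Without the limit on fold, adjusted p was under 0.05 for 19 higher and 7 lower genes, with the same counts at the unadjusted p, and DESeq2 also called 0 higher. Fdps was 21.4, 20.4 and 20.6 cpm here, 0.71 ± 0.106 on the log2 scale against the brain NSCs, and Idi1 was 66.7, 65.9 and 60.8 cpm, a change of 0.58 ± 0.0754. Abca1 alone was called lower, going from 103, 102 and 104 to 14.0, 12.0 and 14.2 cpm, a log2 fold change of -2.94 ± 0.0841 (SE), edgeR adjusted p = 2.07e-14.

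**Figure D3:**
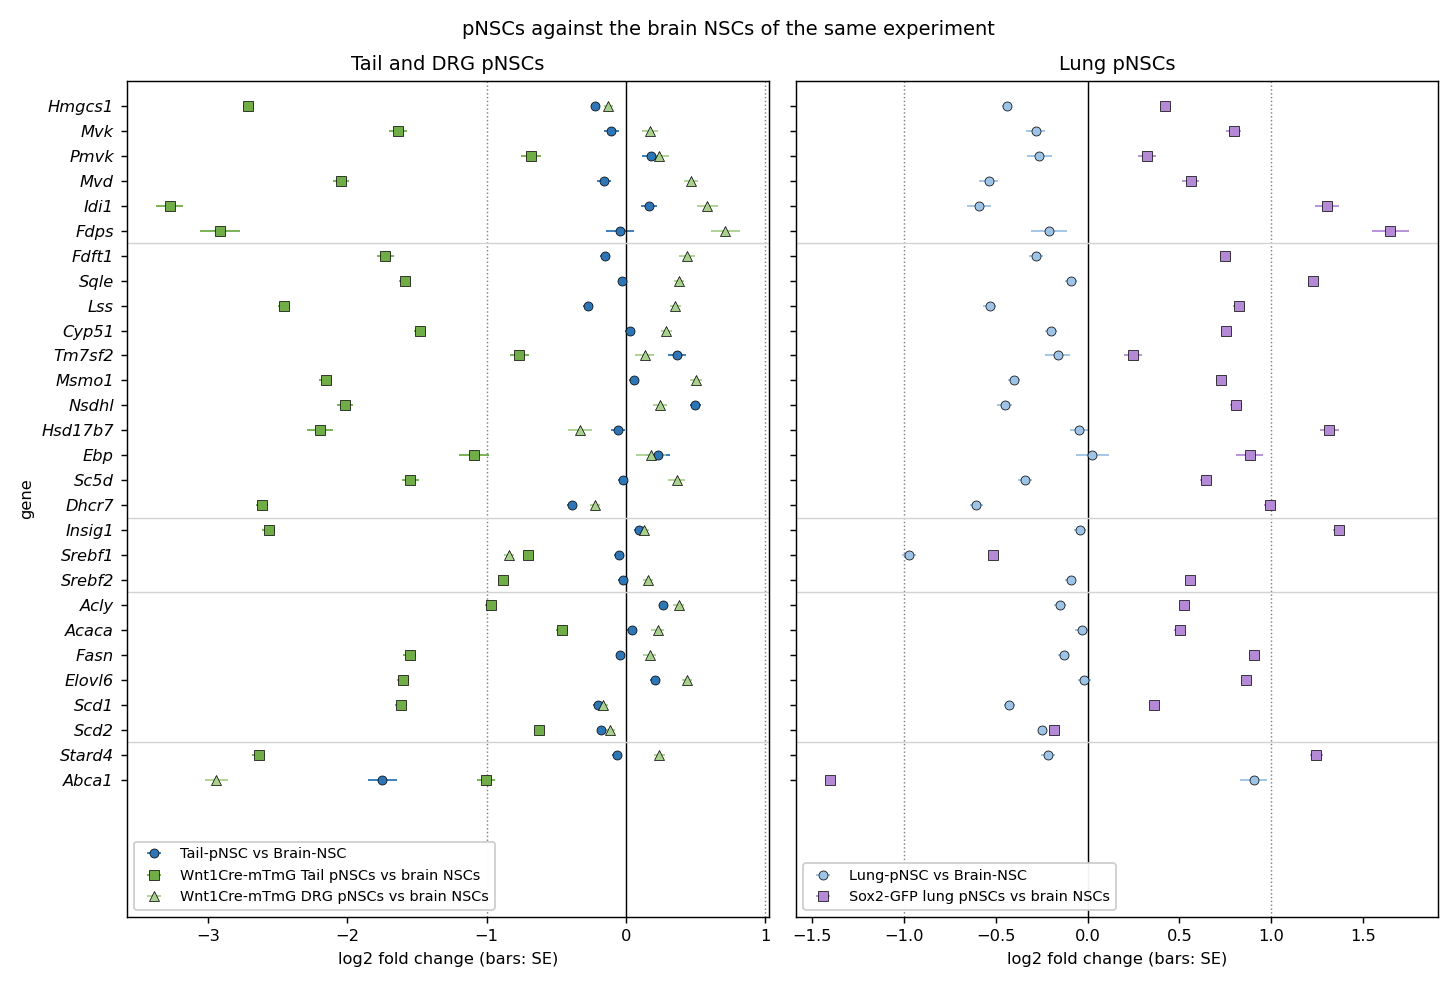
Log2 fold change of each gene in tail and DRG pNSCs (left) and lung pNSCs (right) against the brain NSCs of the same experiment, with bars for the SE and dotted lines at the 2-fold limits. The Wnt1Cre-mTmG Tail pNSCs lie left of 0 for all 28 genes and past the limit for 21, while the other tail and DRG points lie within the limits apart from Abca1.

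Lung-pNSC and Brain-NSC differed little in these genes. edgeR called 0 of the 28 genes in either direction, beside 4.56% of all genes higher and 4.15% lower, as did DESeq2. The median log2 fold change was -0.23 beside 0 for all genes, so that most lay slightly below brain. With an unadjusted p under 0.05 there were 1 higher and 22 lower genes. Srebf1 was nearest to the limit, at 87.8 and 91.9 cpm against 169 and 177 in Brain-NSC (-0.97 ± 0.0391). Abca1, at 42.6 and 41.2 cpm against 20.5 and 23.5, leaned the other way (0.90 ± 0.0720).

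In the Sox2-GFP line, lung pNSCs held more of these transcripts than their brain NSCs. Of 28 genes, 6 rose and 1 fell (5.76% and 9.99% of 16234 tested genes), with a median log2 fold change of 0.75 beside 0 for all genes, and 25 of the 28 lay above 0. Fdps rose from 4.26, 4.70 and 5.11 cpm to 15.4, 15.1 and 13.0, a log2 fold change of 1.65 ± 0.103 (SE). Insig1 rose from 74.0, 70.4 and 75.2 to 185, 184 and 186 cpm (1.37 ± 0.0289). Hsd17b7 (1.32 ± 0.0529), Idi1 (1.30 ± 0.0633), Stard4 (1.25 ± 0.0341) and Sqle (1.23 ± 0.0227) rose too. In each of these 6 the lung samples lay above all brain samples. Dhcr7, at 0.99 ± 0.0318, was just under 2-fold and was called under some alternatives.

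The 3 brain groups differed among themselves. For 27 of 28 genes, all but Abca1, each Sox2-GFP brain NSC sample lay below each sample of the other 2 brain groups, which was true of 21.4% of all genes. Here as well the group was singled out by the levels of these genes, and the count is a description. In the same samples the neural crest and Schwann cell markers summed to 69.0 to 73.4 cpm, with 3 of 6 above 1 cpm and Foxd3 at 0, beside 10.5 to 11.1 in Sox2-GFP lung pNSCs, 9.83 to 9.96 in Brain-NSC and 22.5 to 23.5 in Wnt1Cre-mTmG brain NSCs, and their part in these levels was not tested. Dhcr7 had 274 and 269.7 cpm in Brain-NSC, 212, 214 and 208 in Wnt1Cre-mTmG brain NSCs and 63.9, 68.0 and 65.4 in Sox2-GFP brain NSCs. Hsd17b7 had 94.4 and 92.3, 70.2, 66.9 and 67.0 and 19.2, 20.7 and 20.1 cpm in the same order. Among the 3 brain groups Hsd17b7 varied 4.66-fold, Fdps 4.29-fold, Idi1 4.19-fold and Dhcr7 4.13-fold, and Scd2 1.11-fold. The levels of Sox2-GFP lung pNSCs were in turn below those of Lung-pNSC for the sterol mean (6.54 against 6.81). These levels come from separate experiments and were not tested.

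The lung effect was also compared between the lines as an interaction. It was higher in the Sox2-GFP line for 14 genes and lower for 1, Abca1 (14.1% of 17393 genes were called in either direction), with a median difference of 1.00 on the log2 scale beside 0 for all genes. Among the 14 were 7 of 11 squalene and sterol genes and 4 of 6 mevalonate genes, led by Idi1 at 1.88 ± 0.107 (SE), Fdps at 1.85 ± 0.144 and Dhcr7 at 1.59 ± 0.0539. Fasn (1.03 ± 0.0558) and Fdft1 (1.02 ± 0.0643) lay at the 2-fold limit and lost their calls under DESeq2, under upper-quartile scaling and under both other filters. Experiment, mouse line, age of the lung and picked pNSC cluster cannot be told apart here.

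Tail-pNSC, Lung-pNSC and Sox2-GFP lung pNSCs had more sterol gene transcripts than the tissues they were compared with. In bulk RNA, fewer cells of a type and less RNA per cell cannot be told apart. Tail-pNSC exceeded Tail for 11 genes and lay below it for 2, where 14.1% of all genes were called higher and 32.6% lower, and the median log2 fold change of the 28 was 0.94 beside -0.16 for all genes. Scd2 rose the most (2.32 ± 0.0261), then Hmgcs1 (2.13 ± 0.0309), Nsdhl (2.05 ± 0.0480), Dhcr7 (2.01 ± 0.0441) and Tm7sf2 (2.00 ± 0.0826). Sc5d, Cyp51, Sqle, Acly, Lss and Insig1 rose by 1.04 to 1.69 on the log2 scale. Only 1 of 6 mevalonate genes was called, the other 5 lying between 0.74 and 0.95. Scd1 (-1.04 ± 0.0295) and Abca1 (-3.99 ± 0.0828) fell. The call of Insig1 was lost under DESeq2 and under the stricter filter, and that of Scd1 under upper-quartile scaling.

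Lung-pNSC exceeded Lung for 20 genes and lay below it for 3 (20.2% and 34.9% of all genes), with a median log2 fold change of 1.84 beside -0.15 for all genes. All 6 mevalonate genes and 10 of 11 squalene and sterol genes rose. Elovl6 rose the most, from 10.7 and 10.9 to 268 and 264 cpm (4.56 ± 0.0563), followed by Cyp51, from 34.9 and 34.8 to 465 and 477 cpm (3.69 ± 0.0439), Hmgcs1 (3.34 ± 0.0338) and Sqle (3.03 ± 0.0422). The groups were far apart in all of these. Ebp was the sterol gene not called, at -0.66 ± 0.0850. Srebf2 (1.08 ± 0.0332) was called as well, though not under DESeq2 or the stricter filter. Srebf1 (-1.10 ± 0.0394), Abca1 (-1.37 ± 0.0580) and Scd1 (-2.66 ± 0.0304) fell.

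Sox2-GFP lung pNSCs exceeded the same 2 Lung samples for 17 genes and lay below them for 1 (21.3% and 34.9% of all genes), with a median log2 fold change of 1.60 beside -0.12 for all genes. The Lung samples bear no mouse line label and no age of their own, so group, experiment, line and age cannot be told apart here. The 17 were all 6 mevalonate genes, 9 of 11 squalene and sterol genes, Elovl6 and Scd2. Elovl6 changed by 4.07 ± 0.0517, Cyp51 by 3.22 ± 0.0363 and Hmgcs1 by 2.86 ± 0.0259, and Scd1 fell, with a change of -3.19 ± 0.0197. Beside these values, Lung held lung epithelial markers at 27954 to 28535 cpm and leukocyte markers at 4286 to 4311 cpm, and Tail held keratinocyte markers at 5089 to 5169 cpm and mesenchymal markers at 72211 to 73653 cpm. The part of these cells in the levels of Tail and Lung was not tested.

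Against DRG NCSCs, the 2 kinds of Wnt1Cre-mTmG pNSCs gave different values. DRG NCSCs came from adult wild-type mice and these pNSCs from postnatal Wnt1Cre-mTmG tissue. Cell type, age, mouse line and any difference in culture therefore cannot be told apart. DRG NCSCs also held mesenchymal markers at 2955 to 3594 cpm and leukocyte markers at 587 to 616 cpm. Their part in the levels of DRG NCSCs was not tested. DRG pNSCs exceeded DRG NCSCs for 19 genes and lay below them for 2 (15.1% and 23.3% of all genes), with a median log2 fold change of 1.67 beside 0.00 for all genes. Hmgcs1 rose the most, from 134, 127 and 131 cpm in DRG NCSCs to 1254, 1249.6 and 1227 in DRG pNSCs (3.25 ± 0.0351 (SE), edgeR adjusted p = 2.68e-21). Idi1 (2.56 ± 0.0836), Lss (2.49 ± 0.0448), Cyp51 (2.41 ± 0.0451) and Mvd (2.34 ± 0.0551) followed.

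Wnt1Cre-mTmG Tail pNSCs exceeded DRG NCSCs for 0 genes and lay below them for 7 (15.3% and 22.6% of all genes), with a median log2 fold change of -0.38 beside 0.00 for all genes. The count of lower genes is near the share of all genes. DESeq2 gave the same counts, and at an unadjusted p under 0.05 edgeR had 7 higher and 19 lower. The 7 were Idi1 (-1.30 ± 0.112), Fdps (-1.68 ± 0.153), Ebp (-1.58 ± 0.0970), Srebf1 (-1.88 ± 0.0349), Scd1 (-1.29 ± 0.0396), Stard4 (-1.67 ± 0.0451) and Abca1 (-2.91 ± 0.0609). Hmgcs1 (0.66 ± 0.0335), Cyp51 (0.64 ± 0.0446) and Tm7sf2 (0.95 ± 0.0746) leaned the other way without reaching 2-fold. Without replicate 3 of DRG NCSCs, which stood apart, 8 genes were called lower and 1 higher, the last being Tm7sf2, and the count for DRG pNSCs was again 19 higher and 2 lower. Both comparisons use the same 3 DRG NCSC samples.

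**Figure D4:**
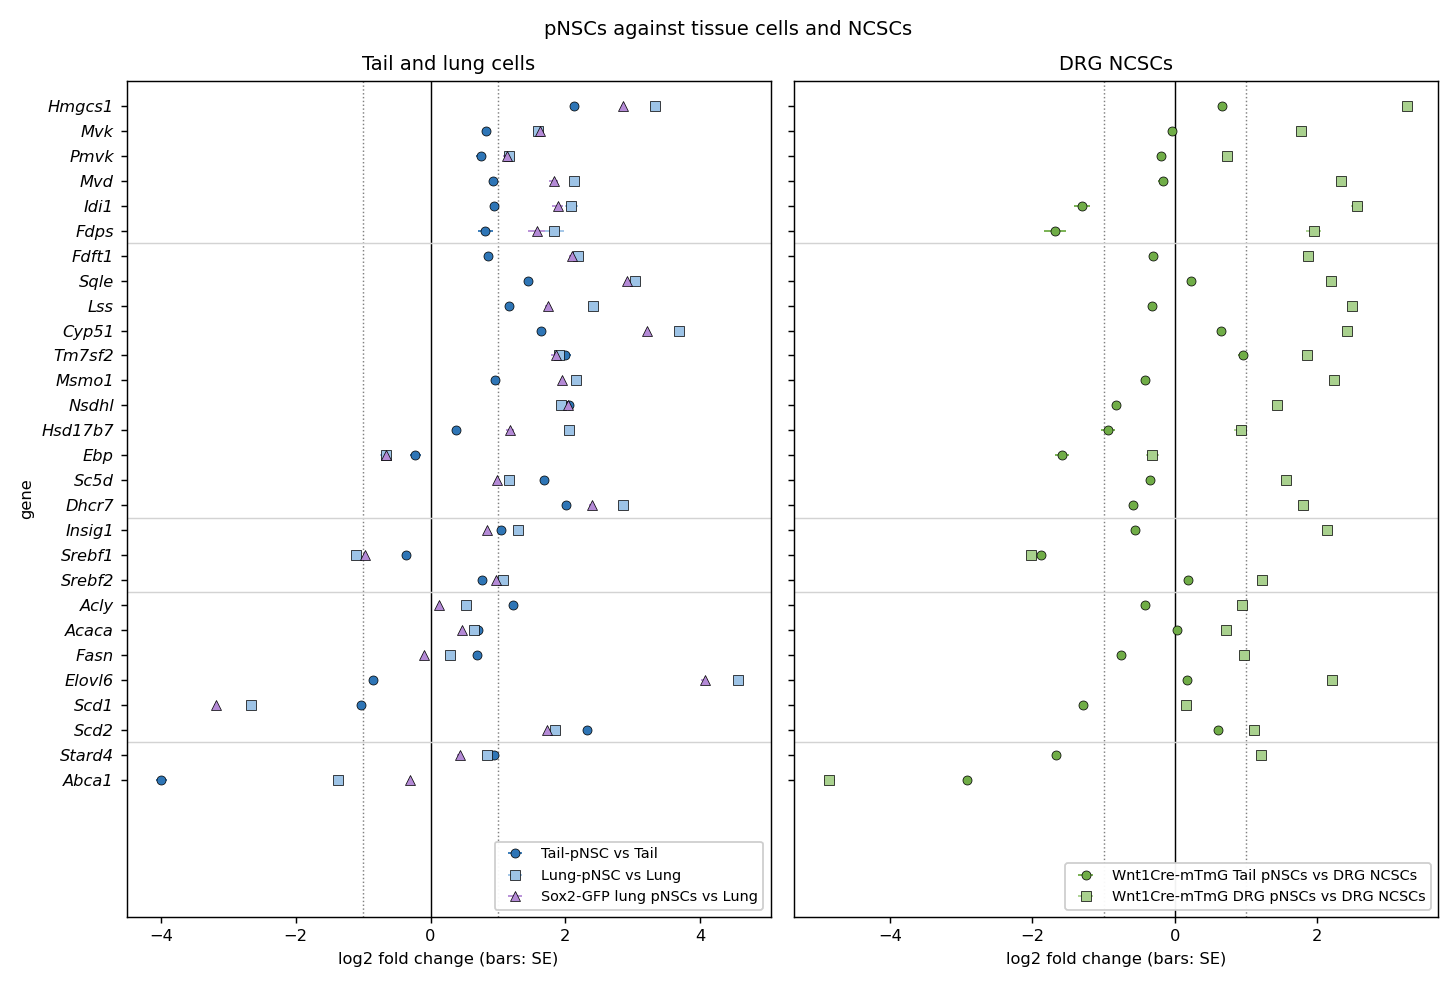
Log2 fold change of each gene in pNSCs against tail or lung cells (left) and against DRG NCSCs (right), with bars for the SE and dotted lines at the 2-fold limits. Most mevalonate and sterol genes lie right of 0 in Tail-pNSC, both lung pNSC groups and DRG pNSCs, while Wnt1Cre-mTmG Tail pNSCs lie left of 0 against DRG NCSCs for 20 of the 28 genes.

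Of the regulators, Insig1 moved with the sterol genes. It had 264 and 261 cpm in Brain-NSC, 284 and 286 in Tail-pNSC and 254 and 266 in Lung-pNSC, and 208, 208 and 203 in Wnt1Cre-mTmG brain NSCs against 32.7, 37.1 and 36.0 in the Tail pNSCs of that line, a log2 fold change of -2.56 ± 0.0445. Its r with the mean of the sterol genes was 0.91 over 11 groups and 0.99 over the 8 NSC and pNSC groups. Srebf2, whose protein acts mainly on sterol genes, followed them too (r = 0.97 over 11 groups) over a narrower range, 2.67-fold between the highest and lowest group means. It was 479.7 ± 8.86 cpm in Wnt1Cre-mTmG brain NSCs and 264 ± 1.02 in Tail pNSCs (SD, n = 3 each), a change of -0.88 ± 0.0371 that was under the 2-fold limit.

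Srebf1 followed another order, with r = -0.36 over 11 groups. DRG NCSCs had the highest level, 1022, 1068 and 1082 cpm, then Wnt1Cre-mTmG brain NSCs with 459.6, 473 and 460.4, Wnt1Cre-mTmG Tail pNSCs with 285, 288 and 294 and Wnt1Cre-mTmG DRG pNSCs with 257, 263 and 259. Both lung pNSC groups were lowest, Lung-pNSC with 87.8 and 91.9 cpm and Sox2-GFP lung pNSCs with 96.6, 95.7 and 95.8. Against DRG NCSCs it fell in both Tail pNSCs (-1.88 ± 0.0349, adjusted p = 1.94e-18) and DRG pNSCs (-2.02 ± 0.0357, adjusted p = 1.22e-18), both by edgeR's quasi-likelihood test. Its gene has alternative start sites, which counts per gene cannot separate, and it overlaps Rai1 on the other strand.

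The fatty acid genes varied less than the sterol genes among NSC and pNSC groups, with means over the 6 genes from 7.93 ± 0.013 in Wnt1Cre-mTmG Tail pNSCs (SD, n = 3) to 9.38 ± 0.0042 in Tail-pNSC (n = 2). Acly, which splits citrate into acetyl-CoA, varied 2.98-fold across the 11 groups and Acaca, which makes malonyl-CoA, 2.06-fold. Fasn, the fatty acid synthase, had 793, 793 and 780.5 cpm in Wnt1Cre-mTmG brain NSCs and 268, 276 and 272 in Tail pNSCs (-1.55 ± 0.0467), with the groups well apart. Elovl6, which lengthens palmitate (-1.60 ± 0.0410), and Scd1 (-1.61 ± 0.0400) fell there too. Acly (-0.97 ± 0.0406), Scd2 (-0.62 ± 0.0345) and Acaca (-0.46 ± 0.0446) were under the 2-fold limit. The median r between pairs of these 6 genes over 11 groups was 0.45.

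The desaturases Scd1 and Scd2, which put the double bond into stearate, differed in where they were high. Per length, Scd2 had the highest level of the 28 genes in DRG NCSCs and in all 8 NSC and pNSC groups, in the latter from 531 to 813 cpm per kilobase, while Scd1 led in Tail and Lung. Scd1 had 2577 and 2534 cpm in Lung and 946 and 952 in Tail, against 566 and 558 in Brain-NSC. Scd2 had 1028 and 999 in Lung and 739 and 753 in Tail, against 4525 and 4365 in Brain-NSC. The 2 genes are close paralogs in 1 cluster on chromosome 19, so their counts are uncertain as far as reads could not be assigned to one of them. Elovl6 had its highest level in Tail, 525 and 524 cpm, and its lowest in Lung, a 48.7-fold difference. Sebaceous gland markers summed to 243 to 251 cpm and adipocyte markers to 161 to 162 cpm in Tail, and their part in these levels was not tested.

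Stard4, a carrier that moves sterol between membranes, behaved like a sterol gene among the NSC and pNSC groups (r = 0.99 over 8 groups). It fell from 147, 146 and 148 cpm in Wnt1Cre-mTmG brain NSCs to 24.6, 23.4 and 23.7 in Tail pNSCs (-2.64 ± 0.0450). Abca1 varied most of the 28 genes, 34.9-fold among the 8 NSC and pNSC groups and 58.1-fold among all 11. From the lowest upwards it had 6.60 and 6.72 cpm in Tail-pNSC, 14.0, 12.0 and 14.2 in DRG pNSCs, 20.5 and 23.5 in Brain-NSC, 42.6 and 41.2 in Lung-pNSC and 49.8, 54.2 and 51.5 in Wnt1Cre-mTmG Tail pNSCs. Sox2-GFP lung pNSCs had 89.5, 86.4 and 83.6 cpm and Wnt1Cre-mTmG brain NSCs 103, 102 and 104, with Tail at 97.0 and 101 and Lung at 102 and 106 in the same range. At the top were Sox2-GFP brain NSCs with 227, 238 and 232 and DRG NCSCs with 412, 406 and 344.

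The 3 brain groups differed 10.6-fold in Abca1, while their Scd2 differed 1.11-fold. Over 11 groups its r with the mean of the sterol genes was -0.66, and over the 8 NSC and pNSC groups -0.54. Abca1 fell in pNSCs against brain NSCs in Tail-pNSC, in DRG pNSCs and in Sox2-GFP lung pNSCs (-1.40 ± 0.0268). In Wnt1Cre-mTmG Tail pNSCs the change was -1.004 ± 0.0637, at the limit, and the call was lost without Tail pNSC replicate 1 or 3 or brain NSC replicate 3. In Lung-pNSC it leaned upward, and the difference between the lung effects of the 2 lines was tested at -2.31 ± 0.0940 (SE), edgeR adjusted p = 6.70e-22.

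**Figure D5:**
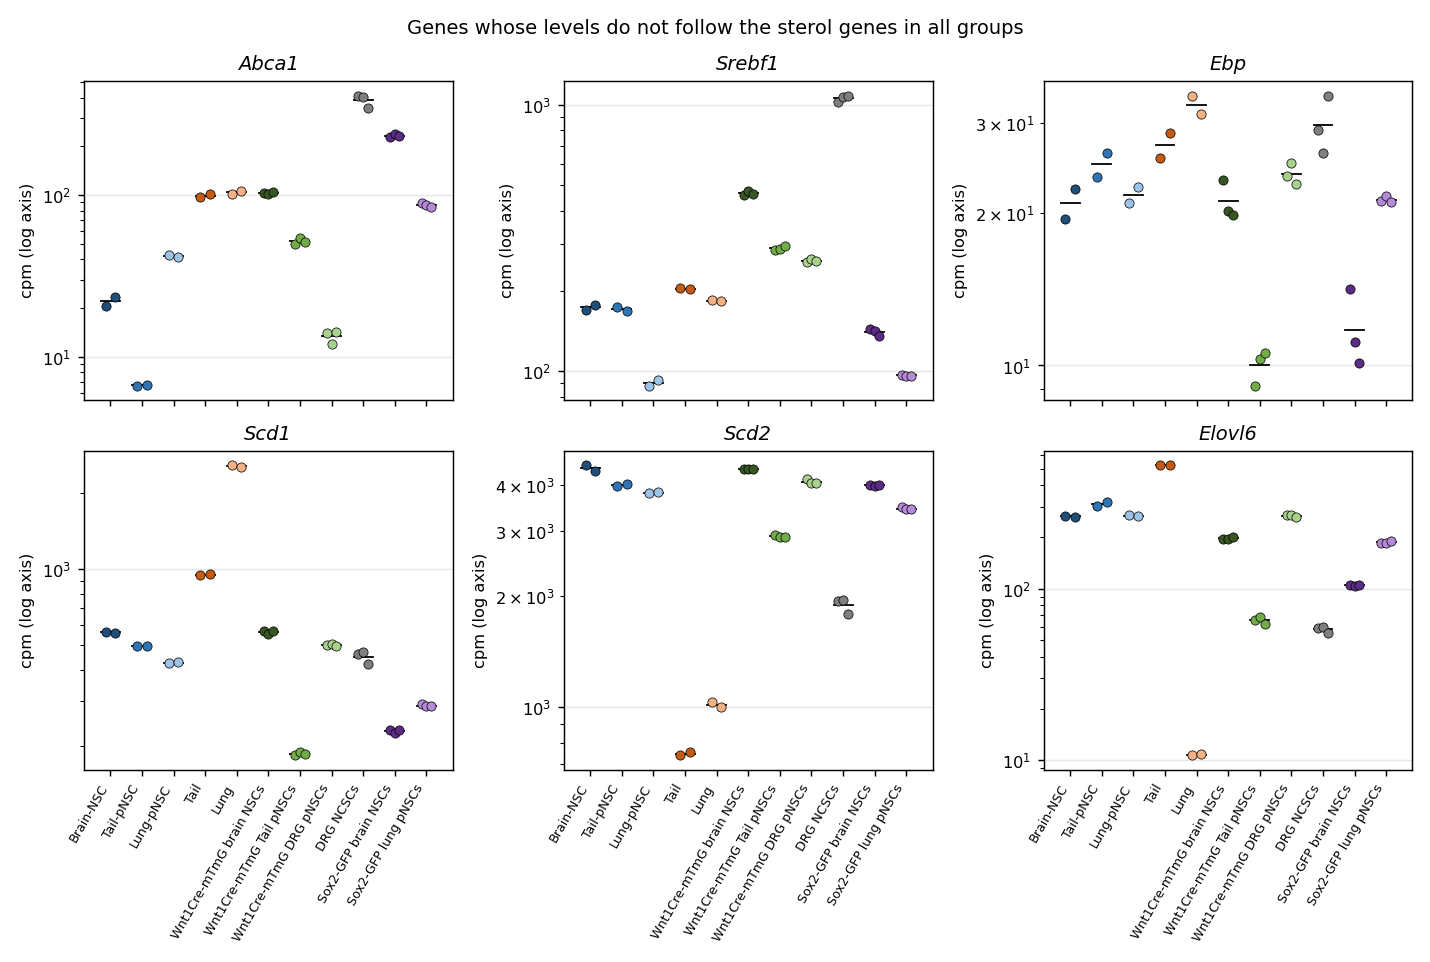
Levels in cpm (log axis) of Abca1, Srebf1, Ebp, Scd1, Scd2 and Elovl6 in each sample (points) by group, with bars at the group means. Abca1 spans 58.1-fold between Tail-pNSC and DRG NCSCs, Srebf1 and Abca1 peak in DRG NCSCs, Scd1 peaks in Lung, and Scd2 is lowest in Tail and Lung.

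Among 14 other genes of sterol efflux, storage and LXR function, 8 fell and 0 rose in Tail-pNSC against Tail (0 higher and 12 lower at an unadjusted p under 0.05 in edgeR), and 9 fell and 1 rose in Lung-pNSC against Lung, where 32.6% and 34.9% of all genes were called lower. Abcg1, which exports cholesterol to lipoproteins, was 133 ± 3.31 cpm in Lung (n = 2), 15.1 ± 0.544 in Tail (n = 2) and 16.1 ± 0.165 in DRG NCSCs (n = 3), and at most 2.64 cpm in any NSC or pNSC group. Against DRG NCSCs, 6 of the 13 tested genes of this list fell in Wnt1Cre-mTmG Tail pNSCs and 6 fell and 1 rose in DRG pNSCs (22.6% and 23.3% of all genes were lower), with Mylip, an LXR target that marks lipoprotein receptors for degradation, at -3.58 ± 0.136 and -4.25 ± 0.177. Mylip was 27.7 ± 4.03 cpm in DRG NCSCs (SD, n = 3), and its group means in all NSC and pNSC groups lay between 1.43 and 2.33 cpm. Against brain NSCs the list gave 2 lower of 14 in Tail-pNSC, 1 higher of 14 in Lung-pNSC, 2 lower of 13 in Wnt1Cre-mTmG Tail pNSCs, 2 lower of 13 in DRG pNSCs and 4 lower of 14 in Sox2-GFP lung pNSCs. The shares of all genes called lower in the 4 comparisons with lower genes were 6.59%, 9.05%, 6.41% and 9.99%, in that order. In Lung-pNSC 4.56% of all genes were called higher, and 1 of 14 is near that share.

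Of 17 other fatty acid genes, against brain NSCs, 1 rose and 1 fell in Tail-pNSC, 0 did either in Lung-pNSC (5 higher and 5 lower at edgeR's unadjusted p under 0.05), 3 rose and 5 fell in Wnt1Cre-mTmG Tail pNSCs, 1 rose and 2 fell in DRG pNSCs, and of 16 tested 1 rose and 3 fell in Sox2-GFP lung pNSCs. Of all genes, 4.31%, 4.56%, 9.16%, 3.12% and 5.76% were called higher and 6.59%, 4.15%, 9.05%, 6.41% and 9.99% lower, in that order, and counts of 1 of 17 are near those shares. Thrsp, a nuclear regulator of lipogenesis, fell in 4 of these 5 and in Lung-pNSC had 64.4 cpm as a mean, the highest of all groups, at 0.99 ± 0.0728 on the log2 scale and so under the limit. It was 30.6 and 33.1 cpm in Brain-NSC and 0.753 and 0.713 in Tail-pNSC (-5.46 ± 0.170), and 51.4, 53.4 and 53.7 in Wnt1Cre-mTmG brain NSCs against 10.1, 10.4 and 10.1 in Tail pNSCs (-2.39 ± 0.0812). Fads3, of the fatty acid desaturase family, rose in Tail-pNSC (3.18 ± 0.123), in Wnt1Cre-mTmG Tail pNSCs (2.48 ± 0.115) and in DRG pNSCs (1.11 ± 0.147) against their brain NSCs, and fell in Sox2-GFP lung pNSCs (-1.41 ± 0.103).

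Of 16 genes of fatty acid oxidation and uptake, 2 rose and 5 fell in Tail-pNSC against Tail and 6 rose and 5 fell in Lung-pNSC against Lung. Of all genes, 14.1% and 20.2% were called higher and 32.6% and 34.9% lower in these 2 comparisons, so the counts of lower genes are near the background. Cd36, a fatty acid transporter, was 1633 ± 32.7 cpm in Lung, 178 ± 0.947 in Tail and 3.04 ± 0.216 in Lung-pNSC (SD, n = 2 each), all 3 far apart. Ppargc1a, a coactivator of oxidative metabolism, rose in Tail-pNSC against Tail (5.16 ± 0.118) and in both kinds of Wnt1Cre-mTmG pNSCs against DRG NCSCs (3.96 ± 0.0788 in Tail pNSCs, 3.05 ± 0.0867 in DRG pNSCs). Against brain NSCs, Tail-pNSC and Wnt1Cre-mTmG Tail pNSCs each had 1 gene of this list higher and 1 lower, Cd36 (1.35 ± 0.262 in the second) and Cpt1c (-1.14 ± 0.0466), and Lung-pNSC had 0 of either (3 higher and 6 lower at edgeR's unadjusted p under 0.05). In DRG pNSCs 1 of 15 tested genes fell and 0 rose, and in Sox2-GFP lung pNSCs 2 of 16 fell and 0 rose. In the same order, 4.31%, 9.16%, 4.56%, 3.12% and 5.76% of all genes were called higher and 6.59%, 9.05%, 4.15%, 6.41% and 9.99% lower. The counts of this list are near those shares. At edgeR's unadjusted p under 0.05, 12 genes of the list were lower than in brain NSCs in each of Tail-pNSC, DRG pNSCs and Sox2-GFP lung pNSCs, with 1, 1 and 2 higher.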

How the data were processed

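RNA-seq was analysed in 28 samples of 11 groups. The deposited table holds raw read counts per gene symbol, which the authors made from aligned reads. The submitters' processing notes name HISAT2, Cufflinks, HTSeq and the mouse build GRCm38. The study's methods state the tools' versions, which are not repeated here. The annotation release used for counting and the strand setting are not given in the sources used here. Reads of genes overlapping on opposite strands may therefore not be told apart. Among such pairs are Fdft1 with Ctsb, Cyp51 with Akap9, Srebf1 with Rai1 and Lss with 4930483K19Rik. Hmgcs1 with Gm48342, Idi1 with Gm48574 and Mvd with Gm20388 also belong to them. On the same strand, Tm7sf2 overlaps Vps51, Fdps overlaps Gm43738 and Gm22935, and some other listed genes overlap microRNA or predicted genes.

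Counts were used as deposited. Each of 3 experiments was fitted with edgeR 4.0.16 (R 4.3.3) by quasi-likelihood with group as the only term, TMM scaling and filterByExpr (minimum count 10, minimum total 15). The unlabelled-line fit held 10 samples, the Wnt1Cre-mTmG fit 12 and the Sox2-GFP fit 8, the last with the 2 Lung samples. Both interactions came from 1 fit of all 28. Calls needed a Benjamini-Hochberg adjusted p under 0.05 over all tested genes and a 2-fold change. SE was the log2 fold change over the square root of F, levels were TMM cpm over the 28 samples, and log2 levels had a pseudocount of 1 cpm. In the unlabelled-line and Sox2-GFP fits many adjusted p-values were too small to be represented, and the SE is given instead. Depth was 9808246 to 22637031 counts per sample. The scripts were tested on simulated data. Alternatives were DESeq2 1.42.0, upper-quartile scaling, no filter, a stricter filter (mean count of at least 100), a replicate block, fits of only the 2 groups compared, and leaving out each replicate.

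The 28 genes, the other lists and the tests were chosen with earlier results of these data known. All 28 genes were described by role, and from each other list at most 4 genes a comparison were named, those called with the largest log2 fold change in size and a group mean of at least 1 cpm. Values of some genes in these lists are not reported here. Gene positions came from GENCODE vM21 (GRCm38), and promoter windows from RefSeq (GRCm38.p6), which held windows for 22 of the 28 genes. Figures were drawn with matplotlib 3.10.9.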

Additional observations from a re-analysis of the deposited data

Results flagged for a closer look

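The tail effect is the log2 fold change of tail pNSCs against brain NSCs. It differed between the Wnt1Cre-mTmG and unlabelled lines for 22 of the 28 genes, by the interaction test in edgeR's fit of all 28 samples. The values that follow are log2 differences, the Wnt1Cre-mTmG effect minus that of Tail-pNSC against Brain-NSC. Among the mevalonate and sterol genes they were Idi1 -3.44, Fdps -2.88, Nsdhl -2.52, Hmgcs1 -2.50, Dhcr7 -2.22, Msmo1 -2.21, Lss -2.19, Hsd17b7 -2.14, Mvd -1.89, Fdft1 -1.58, Sqle -1.57, Mvk -1.54, Sc5d -1.53, Cyp51 -1.51, Ebp -1.33 and Tm7sf2 -1.14. Among the other genes they were Insig1 -2.66, Stard4 -2.57, Elovl6 -1.81, Fasn -1.52, Scd1 -1.41 and Acly -1.24. All 22 were negative, and all 22 were called again without each replicate in turn. Experiment, mouse line, sorting and picked pNSC cluster cannot be told apart.

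The lung effect (the log2 fold change of lung pNSCs against brain NSCs) differed between the Sox2-GFP line and the unlabelled line for 15 genes. Values are the Sox2-GFP effect minus that of Lung-pNSC against Brain-NSC. The sterol mean was 7.10 in Brain-NSC and 5.75 in Sox2-GFP brain NSCs, and 6.81 in Lung-pNSC and 6.54 in Sox2-GFP lung pNSCs. These means were not tested. Among the mevalonate and sterol genes the log2 differences were Idi1 1.88, Fdps 1.85, Dhcr7 1.59, Hsd17b7 1.35, Lss 1.35, Sqle 1.31, Nsdhl 1.25, Msmo1 1.12, Mvd 1.09, Mvk 1.07 and Fdft1 1.02. For the other genes that were higher they were Stard4 1.45, Insig1 1.40 and Fasn 1.03. Abca1 had the opposite sign, at -2.31. Fasn and Fdft1 lay at the 2-fold limit, and their part in the count changed with the settings. Experiment, mouse line, age of the lung and picked pNSC cluster cannot be told apart.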

How the results depend on the processing

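Over the alternatives, 3891 of 3948 values of single genes kept their side of the threshold, 32 lost a call, 25 gained one and 0 called values reversed. Within these 3948, 18 values without a call in the main fit changed sign. The largest of them was 0.127 in size on the log2 scale in the main fit. The total number of the 28 genes called stayed within 1.5 times its value in every comparison except Lung-pNSC against Brain-NSC, where it ran from 0 to 1 over the left-out replicates: Srebf1 was called without Brain-NSC replicate 1 or Lung-pNSC replicate 2, and Abca1 without Brain-NSC replicate 2. For Wnt1Cre-mTmG Tail pNSCs against DRG NCSCs it ran from 7 to 9, with 1 gene higher in place of 0 without DRG NCSC replicate 3. The lung interaction gave 13 calls in place of 15 under DESeq2, upper-quartile scaling, no filter and the stricter filter, without Fasn and Fdft1. Replicates with the same number in different groups did not deviate together (correlations of -0.0111 to 0.0522), and the fit with a replicate block changed none of 336 calls, giving 21 calls for Wnt1Cre-mTmG Tail pNSCs against brain NSCs and 22 for the tail interaction. With 2 or 3 samples a group, changes near the 2-fold limit were those whose calls moved.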
